A study of Rattus norvegicus with 4 samples.

Results

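A group of 8 genes that act as brakes on inflammatory messages was followed across rat kidneys in a model of transplantation: the mRNA decay factors Zfp36, Zfp36l1 and Zfp36l2, the antiproliferative proteins Btg1 and Btg2, and the cytokine signal inhibitors Socs1, Socs2 and Socs3. Their probe sets were found by symbol in the array's platform annotation, with the probe set of the highest mean taken for each gene. The genes themselves were chosen with earlier results of these arrays known. The annotation named probe sets for 7 of these 8 genes, among 14217 genes in all. Btg2 had none and is not analysed here. Of the 7, 5 rose above the floor used for low values (4.51 on the log2 scale) on at least 1 array, and 4 did so on all 4 arrays.

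All kidneys came from male Wistar rats of 300 to 480 g and had 29 min of warm ischaemia in the body before removal, which imitates donation after cardiac death. The heparin group received low molecular weight heparin at 10 IU/ml in 3 h of cold machine perfusion with University of Wisconsin solution and in the 30 min of warm perfusion that followed, with an oxygenated, modified Krebs-Henseleit buffer. The PPS group received PPS, which the labels give by this abbreviation only, at the same concentration in both perfusates. The warm group had both perfusions with no supplement, and the cold group had the cold perfusion alone. The warm perfusate was a buffer without blood, as far as the labels describe it. Each group is 1 Affymetrix array of RNA pooled from 3 kidneys, so there is no replicate spread to judge a difference by, and no test was made. The ages of the animals are not given in the sources used here.

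Zfp36, also called tristetraprolin, and its relatives bind AU-rich stretches of short-lived mRNAs through a pair of CCCH zinc fingers and bring in the CCR4-NOT complex, which removes the poly-A tail. Btg1 and Btg2 bind the deadenylase subunits of the same complex and slow cell division. Socs proteins carry an SH2 domain and a SOCS box. Cytokines that act through Janus kinases and STAT transcription factors induce them, and they in turn shut these receptors down. Zfp36 and Socs3 are known as early-response genes whose products limit the signals that induced them.

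Among the 3 Zfp36 genes, all measured on every array, Zfp36 passed 2-fold and its paralogs did not, so the 250 bases before their transcription starts are shown, 5′ to 3′ on the gene's strand, from RefSeq with the build GRCr8. The windows are chr1:92799109-92799358 on the minus strand for Zfp36, chr6:104668691-104668940 on the minus strand for Zfp36l1, and chr6:16242372-16242621 on the plus strand for Zfp36l2. Capitals mark matches, on either strand, to 7 short motifs: the GC box GGGCGG, the TATA motif TATAAA, the AP-1 motif TGANTCA, the cAMP response element TGACGTCA, the STAT motif TTCNNNGAA, the CArG box bound by serum response factor, and an NF-kappaB site.
Zfp36: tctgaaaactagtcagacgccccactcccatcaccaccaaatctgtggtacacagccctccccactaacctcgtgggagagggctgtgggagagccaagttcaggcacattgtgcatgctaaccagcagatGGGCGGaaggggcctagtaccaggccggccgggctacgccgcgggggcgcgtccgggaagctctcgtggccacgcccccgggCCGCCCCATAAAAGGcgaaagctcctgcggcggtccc
Zfp36l1: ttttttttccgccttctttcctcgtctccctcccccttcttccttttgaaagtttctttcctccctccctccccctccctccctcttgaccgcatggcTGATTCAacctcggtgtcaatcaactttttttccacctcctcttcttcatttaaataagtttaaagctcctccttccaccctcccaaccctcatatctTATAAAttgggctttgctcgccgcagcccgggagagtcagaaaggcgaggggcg
Zfp36l2: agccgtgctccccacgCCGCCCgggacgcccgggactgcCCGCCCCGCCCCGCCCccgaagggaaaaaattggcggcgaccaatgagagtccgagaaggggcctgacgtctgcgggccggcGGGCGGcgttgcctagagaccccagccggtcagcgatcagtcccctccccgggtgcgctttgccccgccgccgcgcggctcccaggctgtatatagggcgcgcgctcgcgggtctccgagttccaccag

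Of the 3 windows, that of Zfp36 held a CArG box, CCATAAAAGG, which ended 23 bases before the start site and shared its first base with a GC box. A CArG box was found in 501 of the 33469 RefSeq windows of this length (1.5%). The Zfp36l1 window held an AP-1 motif, TGATTCA, 146 bases before the start and a TATA motif 49 bases before it. These motifs occurred in 6.34% and 12.9% of all windows. The Zfp36l2 window held GC boxes at 5 positions, 3 of them overlapping by 1 base, and no other match, and 30.5% of all windows held a GC box. Windows for 7 of the 8 genes were found. Socs2 had no window. The Socs3 window held an NF-kappaB site (3.54% of all windows) and no STAT motif, but the start it is measured from lies 1207 bases inside the span of the gene, and that of Zfp36l1 lies 1125 bases inside. The Btg1 window held GC boxes only, the Socs1 window a STAT motif (7.67% of all windows) and GC boxes, and the Btg2 window a cAMP response element (1.59%) and GC boxes. A match is a description of the letters, not of a bound site.

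Controls on the arrays bear on every comparison with the cold array. Poly-A controls are bacterial RNAs added before labelling. Their 24 probe sets were all higher on each warm-perfused array than on the cold array, by medians of 1.10 to 1.28 on the log2 scale. Among the 3 warm-perfused arrays these medians differed by at most 0.18. The 3′ probe set of beta-actin exceeded the 5′ one by 3.39 on the heparin, 3.19 on the PPS and 3.22 on the warm array, against 2.79 on the cold array, a measure of RNA quality. Scaled to the poly-A controls, all genes had a median warm minus cold difference of -1.13, against -0.0032 as deposited. The kidney label was borne out by proximal tubule markers, of which all 10 were above the floor on all 4 arrays.

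Zfp36 had the widest range of the 4 genes above the floor on every array. Its log2 value was 11.42 on the heparin array, 10.91 on the PPS array, 13.09 on the warm array and 8.60 on the cold array. The cold array was lowest and the unsupplemented warm array highest, with both supplemented arrays between them. The warm array thus stood 4.48 above the cold array, a 22.3-fold difference that ranked 18 among 9393 analysed genes, those that exceeded the floor on 1 or more arrays. Heparin minus cold was 2.81 (7.03-fold, rank 20) and PPS minus cold was 2.31 (4.94-fold, rank 19); these 3 comparisons share the cold array. Scaled to the poly-A controls, the 3 differences were 3.35 for warm, 1.56 for heparin and 1.25 for PPS, each still past 2-fold.

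With a supplement, Zfp36 was lower than in unsupplemented warm kidneys. Heparin minus warm was -1.67, 3.18-fold lower and rank 35 from the bottom. PPS minus warm was -2.18, 4.52-fold lower and rank 26 from the bottom. Both used the same warm array, and a difference in the pooled kidneys of that group would enter both. Poly-A scaling changed these values little, to -1.80 and -2.10. The level with heparin exceeded that with PPS by 0.51, or 1.42-fold, which is within the 2-fold limit.

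**Figure D1:**
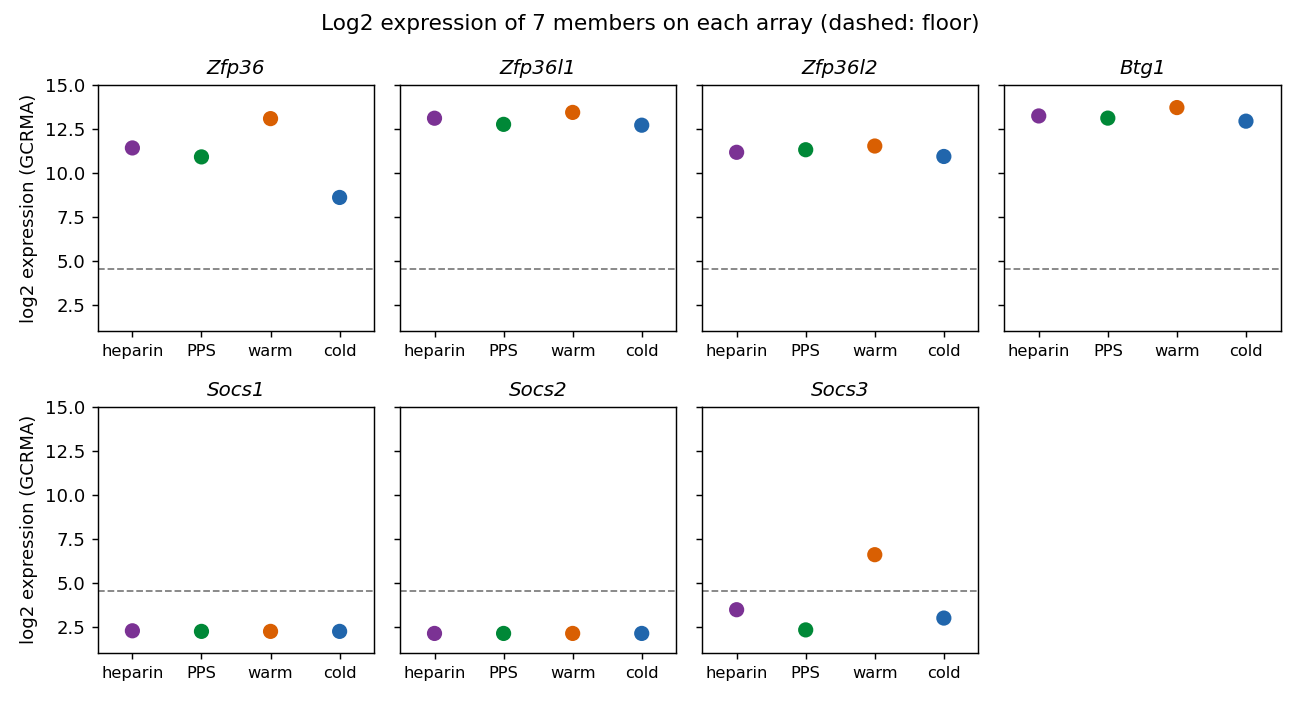
Deposited log2 expression (GCRMA, vertical axis) of the 7 genes with a named probe set on the heparin, PPS, warm and cold arrays (horizontal axis), 1 point per array of RNA pooled from 3 kidneys, with the floor at 4.51 as a dashed line. Zfp36 runs from 8.60 on the cold array to 13.09 on the warm array, Socs3 is above the floor on the warm array alone, and Socs1 and Socs2 stay below it on all 4. Heights of different genes are not comparable, since each comes from its own probes.

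The paralogs Zfp36l1 and Zfp36l2 moved far less. Zfp36l1 had log2 values of 13.11 on the heparin, 12.76 on the PPS and 13.44 on the warm array, against 12.71 on the cold array. Zfp36l2 had 11.17 on the heparin, 11.32 on the PPS and 11.53 on the warm array, against 10.93 on the cold array. For both genes the warm array was highest and the cold array lowest, the same ends as for Zfp36, but the order of heparin and PPS differed between them. Warm minus cold was 0.73 for Zfp36l1 (1.65-fold) and 0.59 for Zfp36l2 (1.51-fold), and neither reached 2-fold. After poly-A scaling these turned to -0.40 and -0.53, both above the scaled median of all genes, so their direction against the cold array depends on the scaling. The other 2 probe sets of Zfp36l2 lay at the lowest values of the table, about 2.11, on all 4 arrays.

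Against the warm array, Zfp36l1 differed by -0.33 with heparin and by -0.68 with PPS. For Zfp36l2 the differences were -0.36 with heparin and -0.21 with PPS. All 4 of these kept their sign under poly-A scaling. Heparin minus PPS was 0.35 for Zfp36l1 and -0.15 for Zfp36l2. All of these lay inside the middle 95% of all genes.

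Btg1 also stayed within 2-fold in every comparison. It had log2 values of 13.24 on the heparin, 13.11 on the PPS and 13.71 on the warm array, against 12.94 on the cold array. From high to low the order was warm, heparin, PPS and cold, as for Zfp36. Warm minus cold was 0.77, a 1.71-fold difference that ranked 384 of 9393 and turned to -0.36 after poly-A scaling. Heparin minus warm was -0.48 and PPS minus warm -0.60, which kept their sign under that scaling. Heparin minus PPS was 0.12 as deposited and -0.08 after it.

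Socs3 was above the floor on the warm array alone. Its deposited log2 value was 3.46 on the heparin array, 2.31 on the PPS array, 6.59 on the warm array and 2.98 on the cold array. The 3 values below the floor lie where GCRMA's background model sets the number, and they have no order. With them raised to the floor, the warm array was at least 4.21-fold higher than the cold array. The heparin and PPS arrays were each at least 4.21-fold lower than the warm array. Because Socs3 entered the analysed genes only through its value on the warm array, a difference on that array was bound to appear. The value of 6.59 is modest, and with the floor at the 60th percentile of all values (6.73) Socs3 was below it on every array.

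Socs1 and Socs2 were not measurable here. Socs1, the inhibitor best known for limiting interferon signals, had 2.26 with heparin and 2.23 on each of the other arrays in the brighter of its 2 probe sets. Socs2, which in mice limits growth hormone signals, had 2.11 on all 4 arrays. These are at or near the lowest value of the table, so nothing can be said of their levels.

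Counted by size, Zfp36 and Socs3, 2 of the 5 analysed genes, were higher by 2-fold or more in warm minus cold, where 2.48% of the 9393 genes were higher by that size. In heparin minus cold 1 of 5 was (Zfp36; 1.17% of all genes), and in PPS minus cold the same 1 (1.03%). In heparin minus warm 2 of 5 were at least 2-fold lower (1.48% of all genes) and in PPS minus warm 2 of 5 (1.71%), again Zfp36 and Socs3. In heparin minus PPS 0 of 5 differed by 2-fold either way, as 0.49% of all genes did. Of the 5, Socs3 passed through the floor rule as described, which leaves Zfp36 as the gene with a measured difference of that size.

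**Figure D2:**
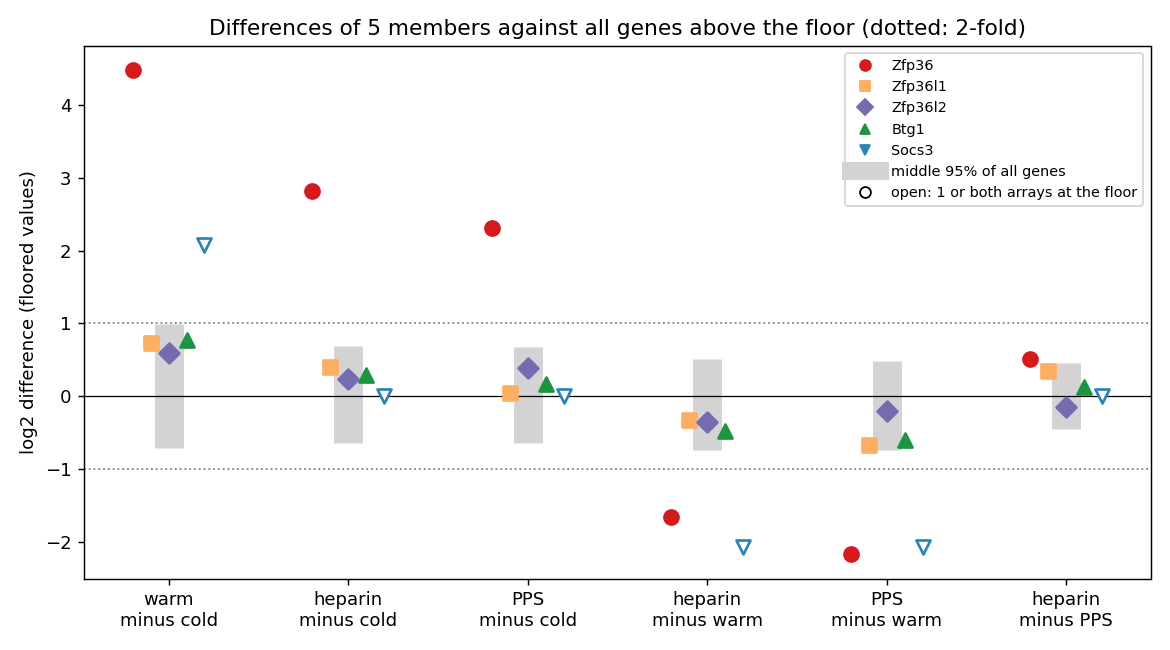
Log2 differences (vertical axis, values below the floor raised to it) of the 5 genes above the floor in 6 comparisons of 1 array with 1 array (horizontal axis), with the middle 95% of 9393 genes as grey bars and 2-fold as dotted lines. Zfp36 lies outside the grey bar in all 6 comparisons, at 4.48 in warm minus cold and -2.18 in PPS minus warm, while open symbols mark Socs3, for which 1 or both arrays are at the floor.

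Genes with the profile most like these were sought among 9162 other genes above the floor on all 4 arrays, by the Euclidean distance between the 4 log2 values after each gene's own mean was taken off. The nearest to Zfp36 were Ier2 (distance 0.20), Junb (0.28) and Csrnp1 (0.30), all known as immediate early genes. Ier2 had log2 values of 9.62 on the heparin, 8.83 on the PPS and 11.11 on the warm array, against 6.71 on the cold array. It followed the same order of arrays as Zfp36. The nearest to Socs3, with its low values at the floor, were the clock gene Per1 (0.10), the p21 gene Cdkn1a (0.14) and the GTPase gene Gem (0.34). Cdkn1a was high on the warm array only, with 6.86 on the heparin, 6.85 on the PPS, 8.82 on the warm and 6.94 on the cold array. With 4 arrays, likeness of this kind is a description and says little.

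As deposited, the genes listed for the machinery that carries out the decay stayed within 2-fold. In warm minus cold 233 of all 9393 genes were at least 2-fold higher and 109 lower, so a count of 0 in a short list says little. These shares apply to the other lists in warm minus cold as well. Of 17 genes listed for the CCR4-NOT and other deadenylases and the BTG/Tob proteins, 16 were measured and 0 differed by 2-fold in any of the 6 comparisons, with a median of 0.08 in warm minus cold (-1.04 after poly-A scaling, near that of all genes). The widest differences in warm minus cold were those of Tob1 (0.82) and Tob2 (0.39), relatives of Btg1 that bind the same complex, and they turned to -0.31 and -0.74 after that scaling. Tob1 was lower than on the warm array with heparin (-0.57) and with PPS (-0.63), and so was Tob2 (-0.52 and -0.49). Of 15 decapping and exonuclease genes, 13 were measured and 0 passed 2-fold, with a median of -0.04 in warm minus cold (-1.17 after that scaling). Both scaled medians lie past 2-fold, as does that of all genes (-1.13).

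Of 16 other RNA-binding regulators and p38 pathway kinases, 13 were measured and 1 passed 2-fold, Zc3h12a. It encodes Regnase-1, an endonuclease that cuts stem-loops in cytokine mRNAs. Its log2 value was 7.09 on the heparin, 6.62 on the PPS and 8.50 on the warm array, against 5.26 on the cold array. The order of arrays was that of Zfp36, with heparin minus warm at -1.41 and PPS minus warm at -1.88. The p38 kinase gene Mapk14 and its substrate kinase Mapkapk2, which phosphorylates Zfp36, differed by -0.15 and -0.20 in warm minus cold. The median of the 13 was 0.09 there, or -1.03 after poly-A scaling, under which Zc3h12a remained 2.11 higher.

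**Figure D3:**
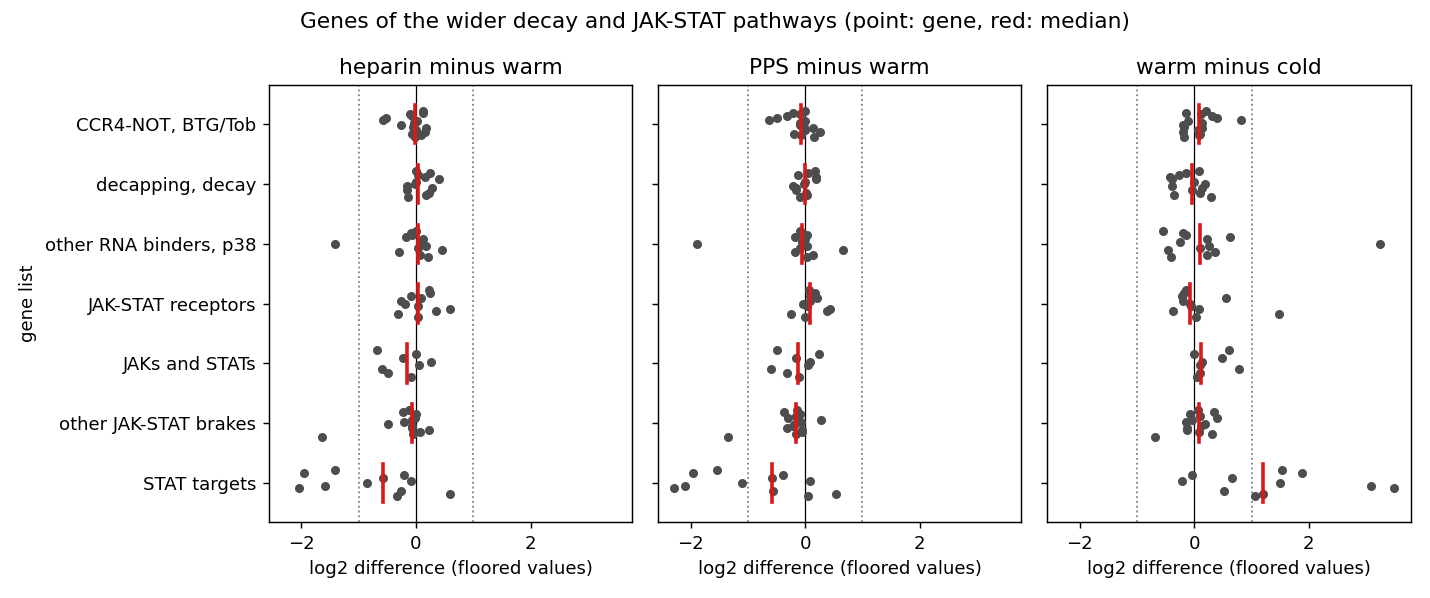
Log2 differences (horizontal axis, values below the floor raised to it) of genes in 7 lists (vertical axis) in heparin minus warm, PPS minus warm and warm minus cold, 1 point per gene, with list medians in red and 2-fold as dotted lines. Most lists centre near 0, Zc3h12a and Cish stand apart in theirs, and the STAT target list has a median of 1.20 in warm minus cold.

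On the cytokine side, the ligands upstream of the Socs genes were mostly below the floor. Of 15 listed ligands of Janus kinase receptors, all had probe sets, but 2 were above the floor and 0 of these passed 2-fold. Il6 had 2.11 on the heparin and PPS arrays, 2.84 on the warm array and 2.11 on the cold array, all below the floor. Of 17 receptors 11 were measured and 1 passed 2-fold. Lifr, the receptor for leukaemia inhibitory factor, was higher by 1.47 in warm minus cold, or 0.34 after poly-A scaling, and its other probe set was below the floor on all 4 arrays. Il6st, the shared gp130 subunit that Socs3 docks on, differed by 0.04 in warm minus cold. None of the 8 measured Janus kinases and STATs passed 2-fold, the widest being Jak3 (0.78) and Stat6 (0.61) in warm minus cold, and Stat3 differed by 0.48. After poly-A scaling these turned to -0.35, -0.52 and -0.65.

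Among other brakes on the same pathway, Cish ran in a different order from Socs3. Cish encodes a Socs family protein induced by STAT5. Its log2 value was 6.85 on the heparin array, 7.14 on the PPS array, 8.49 on the warm array and 9.17 on the cold array. Cish was highest on the cold array, whereas Socs3 and Zfp36 were highest on the warm array. Heparin minus warm was -1.63 (3.10-fold lower) and PPS minus warm -1.35 (2.54-fold lower). Heparin minus cold was -2.32 (4.99-fold lower) and PPS minus cold -2.03 (4.09-fold lower). Warm minus cold was -0.68, or -1.81 after poly-A scaling, where the median of all genes was -1.13. The other probe set of Cish had the same order of the warm and cold arrays, at 4.78 and 6.52, a difference of -1.74. It was below the floor with heparin and with PPS. Of the 14 measured genes in that list of 15, Cish alone passed 2-fold in any comparison, and Socs5, Socs6 and Socs7 differed by 0.31, 0.09 and -0.13 in warm minus cold.

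Of 15 genes known as STAT targets, 11 were measured, and 7 were at least 2-fold higher in warm minus cold, as 2.48% of all genes were. Their median of 1.20 moved to 0.07 after poly-A scaling. In heparin minus cold 3 of the 11 were higher by that size (median 0.26; 1.17% of all genes), and in PPS minus cold 3 were (median 0.07; 1.03% of all genes). After that scaling both medians were below 0. In warm minus cold as deposited, the interferon regulatory factor Irf1 (3.49), the C/EBP factor Cebpd (3.09), Cdkn1a (1.87) and the proto-oncogene Myc (1.54) led. Against the cold array Cdkn1a differed by -0.08 with heparin and -0.09 with PPS, and Myc by 0.12 and 0.00. With heparin 4 of the 11 were at least 2-fold lower than on the warm array and with PPS 5 were, with medians of -0.57 and -0.58, where 1.48% and 1.71% of all genes were. Irf1 (-2.05 with heparin, -2.28 with PPS) and Cebpd (-1.58 and -2.10) were among them, as were Cdkn1a and Myc. Bcl6, a transcriptional repressor, was higher with heparin (0.60) and with PPS (0.54) than on the warm array, within the 2-fold limit.

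Of 25 messages that Zfp36 proteins are known to bind, 19 were above the floor on 1 or more arrays, and 14 of these were at least 2-fold higher in warm minus cold, as 2.48% of all genes were. Their median was 2.83 (1.70 after poly-A scaling). Cxcl1, Cxcl2, Ccl3, Ccl20 and Tnf were below the floor on the cold array and entered through warm-perfused arrays, so a rise was built in for these 5. Large measured differences were those of Fos (7.77), the NF-kappaB regulator Nfkbiz (5.29) and the phosphatase Dusp1 (4.79), and the chemokines Cxcl1 and Cxcl2 were at least 46.6-fold and 27.5-fold higher. In heparin minus cold 11 of the 19 were higher by 2-fold or more (median 1.44; 1.17% of all genes) and in PPS minus cold 10 were (median 1.09; 1.03% of all genes). After poly-A scaling these medians were 0.18 and 0.04, against 1.56 and 1.25 for Zfp36. The scaled medians of all genes were -1.25 and -1.05 in the same comparisons. Not all had the order of arrays seen for Zfp36: Ccl2 was lower with heparin (-0.45) and PPS (-0.60) than on the cold array, Cdkn1a differed by -0.08 and -0.09 there, and Ccnd1 was lowest on the warm array. Tnf, the classic target, was above the floor on the warm array alone, at 5.46, and at least 1.92-fold higher than on the cold array. With heparin 11 of the 19 were at least 2-fold lower than on the warm array (list median -1.12), as 1.48% of all genes were. With PPS 15 were (list median -1.57), as 1.71% of all genes were. Tnf entered through the warm array alone, so a fall was built in for it. The differences with heparin included Ccl20 (-3.74), Cxcl1 (-2.41), Irf1 (-2.05) and Cdkn1a (-1.95). The differences with PPS included Ccl20 (at least 18.0-fold lower), Cxcl2 (-3.62), Cxcl1 (-3.05) and Plk2 (-2.36). Ccl20 was close to the floor with heparin (4.95) and below it with PPS. In heparin minus PPS 2 of the 19 were higher by 2-fold or more, Cxcl2 (2.22) and Ccl3 (1.23). Of all genes 0.49% differed by that size either way.

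**Figure D4:**
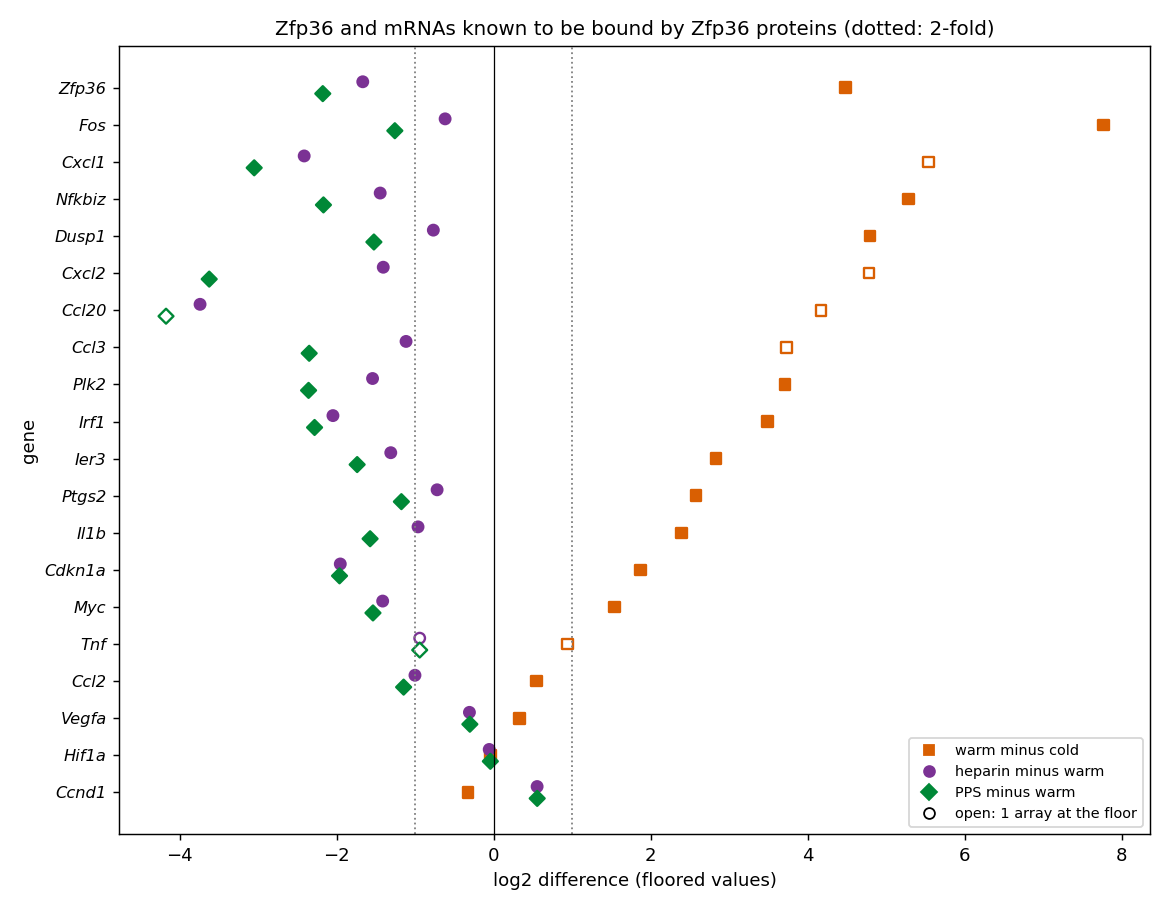
Log2 differences (horizontal axis, values below the floor raised to it) of Zfp36 and of 19 mRNAs known to be bound by Zfp36 proteins (vertical axis) in warm minus cold, heparin minus warm and PPS minus warm, with open symbols where 1 array is at the floor. Most of the messages lie right of 0 in warm minus cold and left of 0 with either supplement, as does Zfp36 (4.48, -1.67 and -2.18), the open symbols in warm minus cold being genes below the floor on the cold array, while Ccnd1 lies at -0.33 and then at 0.55 and 0.56.

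The lists were chosen with earlier results of these arrays known. Irf1, Cdkn1a, Myc and Pim1 stand in both of the last lists, Il4r is listed as a receptor and a STAT target, and Il6, Lif and Csf2 as ligands and as Zfp36-bound messages. Decay of the messages was not measured.

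In RNA from whole kidney, fewer cells of a type and less RNA per cell cannot be told apart. Of 10 proximal tubule markers, 9 were lower and 1 higher in warm minus cold (median -0.22). The same counts held in heparin minus cold (median -0.19) and in PPS minus cold (median -0.11). After poly-A scaling the first of these medians was -1.34, against -1.13 for all genes. Of 12 leukocyte markers, 5 were above the floor on all 4 arrays and 6 were below it on all 4 (Cd68, Itgam, Cd3d, Cd79b, S100a8 and S100a9). Their summed level, on the linear scale of the probe sets, was 22658 on the heparin, 28096 on the PPS and 30456 on the warm array, against 28424 on the cold array. Cd74 and Lyz2, at log2 values of 14.24 and 13.28 on the warm array, made up most of this sum. It says little of the other markers. In warm minus cold 3 leukocyte markers were higher and 2 lower. Of the lower ones, Cd14 was below the floor on the warm array (4.31) and entered through the other arrays, so a fall was built in for it. In heparin minus cold all 6 analysed markers were lower (median -0.27), and in PPS minus cold 3 were higher and 3 lower. The sum of 8 endothelial markers was 11000 with heparin, 10328 with PPS and 13259 on the warm array, against 10921 on the cold array. Singly, 6 of the 8 were higher in warm minus cold and 2 lower. Vwf was 1 of the lower ones (-0.95), and it was -1.59 in heparin minus cold. All 8 collecting duct markers were higher in warm minus cold (median 0.46) and lower than on the warm array with heparin (median -0.37) and with PPS (median -0.34). After poly-A scaling the first of these medians turned to -0.67, and the others were -0.50 and -0.26. Of 6 podocyte markers 5 were above the floor, and all 5 were higher in warm minus cold (median 0.95). Of these, 2 were past 2-fold, as 2.48% of all genes were. The median turned to -0.18 after that scaling. Against the warm array their median was -0.45 with heparin and -0.15 with PPS, with 0 past 2-fold. Of 8 smooth muscle, pericyte and fibroblast markers 7 were above the floor. In warm minus cold 5 of the 7 were at least 2-fold lower (median -1.29, or -2.42 scaled), as 109 of all 9393 genes were. In PPS minus warm 3 of the 7 were at least 2-fold higher (median 0.79), as 48 of all 9393 genes were. These were the collagens Col1a1 (1.70), Col1a2 (1.47) and Col3a1 (1.24). Pdgfrb (0.79), Tagln (0.69), Myh11 (0.25) and Acta2 (-0.01) stayed within 2-fold. In heparin minus warm 0 of the 7 were at least 2-fold higher (median 0.56), where 36 of all 9393 genes were. Col1a2 and Col3a1 were the highest of this list on all 4 arrays and weigh most in its summed level. That level was 2048 on the heparin, 3170 on the PPS and 1569 on the warm array, against 3287 on the cold array. The part of cell makeup and of RNA quality in the differences of these genes was not tested.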

How the data were processed

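The deposited table holds log2 expression values per probe set, made by the authors with GCRMA per the submitters' processing notes, version not given in the sources used here. No header states the scale; the values, between 2.11 and 16.4, are those of log2. GCRMA gives all arrays nearly the same distribution, so a change in total mRNA would not be seen, and 27.1% to 27.3% of the probe sets per array lie at its lowest value. Of 31099 probe sets, 57 are controls, 20826 others have 1 gene symbol, 436 several and 9780 none here. Symbols were updated through Entrez identifiers to RefSeq GRCr8 (20758 found). For each of 14217 genes the probe set of highest mean was taken. Values were raised to a floor, the 50th percentile of all values (4.51), and the 9393 genes above it on at least 1 array were compared by log2 difference, counted from 2-fold. A difference with 1 side at the floor is a lower bound.

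With 1 array of pooled RNA per group there is no p-value, and the number of arrays limits the precision. The calculation was tested on simulated data. The named genes are all members, up to 4 genes per pathway list (9 lists) past 2-fold in warm minus cold, heparin minus warm or PPS minus warm, and the 3 nearest profiles to Zfp36 and Socs3; Btg2, also in that rule, had no probe set. The 6 marker lists are given by counts and medians. Tob1, Tob2, Bcl6 and other list genes outside this rule were named after their values were seen. The members and lists were chosen with earlier results of these data known. Alternatives were the mean over probe sets, other floors or none, scaling to poly-A controls, centring on the median gene and a 1.5-fold limit. Python 3.11.15, numpy 2.4.6 and pandas 2.3.3 were used.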

Additional observations from a re-analysis of the deposited data

How the results depend on the processing

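Of 174 recomputed differences of the 5 genes, 162 kept their side of the 2-fold limit and their direction. Differences of 0 for Socs3 that moved within the limit are counted as kept. Many of the 162 could not have changed. Zfp36, Zfp36l1 and Btg1 have 1 probe set each and lay above every floor used. Zfp36l2, in the probe set taken, also lay above every floor. Zfp36 passed 2-fold in warm minus cold, heparin minus cold, PPS minus cold, heparin minus warm and PPS minus warm under each of the 6 alternatives on values. Of these alternatives, only the poly-A scaling and the centring on the median gene were able to change its differences. With the floor at the 60th percentile, Socs3 was no longer analysed and the count of genes past 2-fold was 1 in each of warm minus cold, heparin minus warm and PPS minus warm. With the floor at the 40th percentile or no floor, Socs3 passed in heparin minus PPS (1.01 and 1.15), a count of 1, where both values are set by the background model. Scaled to the poly-A controls, the count was 2 in heparin minus cold, with Zfp36l2 at -1.02, and 2 in PPS minus cold, with Zfp36l1 just past the limit. Both were lower where Zfp36 was higher. The scaled medians of all genes were -1.25 and -1.05 in these comparisons, themselves past 2-fold lower. Zfp36l2 and Zfp36l1 thus lay above the median gene, and these counts do not set them apart. That scaling also turned the sign of 10 differences, all of Zfp36l1, Zfp36l2 and Btg1: the 9 against the cold array and Btg1 in heparin minus PPS. At a 1.5-fold limit 5 genes passed in warm minus cold and 4 in PPS minus warm. The share of all genes at that limit was not computed, so these counts have no background to be read against. Of the 5, Zfp36l1, Zfp36l2 and Btg1 are among those whose sign in warm minus cold turned under poly-A scaling. The cause of these shifts was not tested. With no replicate arrays, none could be left out in turn. Signal near the floor limits what can be said of Socs1, Socs2 and Socs3.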
